A study of Rattus norvegicus with 196 samples.

Results

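Hcrt, Npvf and Gal encode the precursors of neuropeptides made by hypothalamic neurons, and their transcripts were followed through 196 RNA-seq libraries of the rat brain. The 3 transcripts, ENSRNOT00000025547 (Hcrt), ENSRNOT00000014437 (Npvf) and ENSRNOT00000020425 (Gal), were taken by name from the study's table of transcripts called in several regions, so they are 3 of the 29188 transcripts counted and 3 of the 1845 that carry a name there. They were thus chosen by their differences between fluoxetine-treated and control samples, and the differences between these groups are therefore given for the 3 genes as a description. The libraries came from 25 brain regions of male Long-Evans rats, 60 days old at the start, which received fluoxetine at 18 mg/kg per day in the drinking water for 6 weeks (FT, 98 samples) or water alone (Sham, 98 samples). Each library was made from tissue punches pooled over 10 of the 40 rats of its group, and replicates carry the numbers 1, 3, 4 and 5, with FT and Sham of a number processed in parallel. A pool hides differences between animals, and in bulk tissue fewer cells of a type and less RNA per cell cannot be told apart. The rats carried no stated genetic change in either group. MPOA (medial preoptic area) had 4 Sham and 2 FT libraries and Arc (arcuate nucleus) 2 Sham and 4 FT, each with 2 complete pairs.

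Hcrt encodes prepro-hypocretin, the precursor of the orexins, which are made by neurons of the lateral and perifornical hypothalamus and promote wakefulness, feeding and reward seeking through fibres that reach the locus coeruleus, the raphe and the ventral tegmental area. Npvf encodes the precursor of the RFamide-related peptides, made in the rat by neurons in and around the dorsomedial nucleus, just above the ventromedial nucleus, and known for restraining gonadotrophin release. Gal encodes galanin, an inhibitory co-transmitter of sleep-promoting preoptic neurons, of arcuate neurons and, outside the hypothalamus, of noradrenergic neurons of the locus coeruleus and serotonergic neurons of the rat raphe. Their receptors (Hcrtr1, Hcrtr2, Npffr1, Npffr2, Galr1, Galr2 and Galr3) carry no name in the table used here and were not analysed.

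The 250 bases before the annotated start of each gene are shown, so that a reader can set their start regions side by side. In MPOA and in VMH (ventromedial hypothalamus) all 3 transcripts were higher in FT than in the paired Sham libraries. In Arc and in the lateral hypothalamus the 3 did not move together. The sequences come from RefSeq for the build GRCr8, while the reads were aligned to rn5. All 3 genes lie on the minus strand, with these windows at chr10:86191525-86191774 (Hcrt), chr4:81047046-81047295 (Npvf) and chr1:210084573-210084822 (Gal), and capitals mark the letters TATAAA and TGACG.
Hcrt: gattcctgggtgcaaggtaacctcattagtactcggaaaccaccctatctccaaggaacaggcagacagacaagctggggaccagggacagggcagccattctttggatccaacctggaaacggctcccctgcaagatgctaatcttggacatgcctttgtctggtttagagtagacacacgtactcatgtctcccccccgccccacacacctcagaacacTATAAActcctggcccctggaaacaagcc
Npvf: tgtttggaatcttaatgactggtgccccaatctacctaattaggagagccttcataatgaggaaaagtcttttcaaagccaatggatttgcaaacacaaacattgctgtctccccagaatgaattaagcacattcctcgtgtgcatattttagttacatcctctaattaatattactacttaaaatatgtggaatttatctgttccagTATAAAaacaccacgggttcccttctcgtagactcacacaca
Gal: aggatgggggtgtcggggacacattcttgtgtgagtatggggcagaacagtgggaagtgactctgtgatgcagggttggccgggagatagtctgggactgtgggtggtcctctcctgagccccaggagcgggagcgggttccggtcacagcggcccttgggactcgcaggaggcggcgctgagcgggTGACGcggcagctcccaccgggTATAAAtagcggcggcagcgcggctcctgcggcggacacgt

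TATAAA, the core of a TATA box, stood on the gene's own strand in all 3 windows. Its first base lay 29 bases before the start in Hcrt, 42 in Npvf and 41 in Gal. Among 33469 rat promoter windows of this length it was present on the gene's own strand in 8.06% and on either strand in 12.9%. TGACG, the core that cAMP response elements share, was found in Gal alone, on the gene's own strand 63 to 59 bases before the start. Of all windows, 10.8% held it on the gene's own strand and 18.2% on either strand. The windows differed in composition, with 53.6% G or C in Hcrt, 37.2% in Npvf and 66% in Gal beside a median of 51.2% over all windows. These matches describe letters in a window and say nothing of binding.

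Before the levels were compared, libraries were set against their labels. Total counts on transcripts ran from 4586 to 50893913 with a median of 11921178, and replicate 3 was the shallowest, with a median of 6309544.5 and 68.2% of its reads on the 50 most counted transcripts (28.3% to 34.8% in the other replicates). SNT Sham replicate 3, at 4586 counts, was left out of all levels and of the regional fit. By the profile of 5838 transcripts, 160 of 195 libraries were nearest to the other libraries of their own region, among them 25 of the 28 from MPOA, LH (lateral hypothalamus), VMH and Arc. The remaining 3 of these were LH FT replicate 5, LH Sham replicate 5 and MPOA Sham replicate 4. The library labelled InsularCortex FT replicate 1 lay nearest to VTA (ventral tegmental area), that labelled LC (locus coeruleus) FT replicate 3 nearest to SNT (solitary tract nucleus), and that labelled SNT FT replicate 3 nearest to LC. The FT and Sham libraries of VTA replicates 4 and 5 lay nearest to Raphe, whereas those of replicates 1 and 3 lay nearest to VTA. Raphe FT replicate 5 lay nearest to SNT, Raphe Sham replicate 5 nearest to VTA and LC Sham replicate 4 nearest to PAG. NaCcore (nucleus accumbens core) Sham replicate 4 lay nearest to BLA (basolateral amygdala), and Sham replicate 5 nearest to NaCshell (nucleus accumbens shell). The study's region table calls PVN the paraventricular nucleus of the thalamus. In these libraries the thalamic marker Tcf7l2 had 406.41 ± 71.8 CPM (SD, n = 4 Sham), the unit of counts scaled to an equal library size, while the magnocellular genes Avp and Oxt had 1.87 ± 3.45 and 5.97 ± 11.6, and PVN was kept out of both sides of the hypothalamic comparison. Levels below are CPM after scaling with TMM factors. They are not divided by transcript length, so they compare regions and not genes.

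To describe how far the 3 transcripts are hypothalamic in control animals, regions were compared within the Sham libraries. The mean of MPOA, LH, VMH and Arc was set against the mean of the other regions. This is not the contrast between FT and Sham from which the transcripts were drawn. The 3 genes were, however, known beforehand as genes of hypothalamic peptides, so the direction could be foreseen and the values are a description. All 3 were higher in the hypothalamus. The log2 difference was 4.08 ± 0.40 (SE, edgeR quasi-likelihood test, adjusted p = 6.59e-14) for Hcrt, 5.30 ± 0.66 (adjusted p = 5.56e-10) for Npvf and 4.07 ± 0.15 (adjusted p = 8.47e-38) for Gal, over 96 libraries with the replicate number as a block. In this comparison 13.3% of 17008 transcripts were called higher, a call being an adjusted p of at most 0.1 with an absolute log2 difference of at least 0.32. The 4 hypothalamic regions held 77.5% of the summed Sham region means of Hcrt, 79.2% of those of Npvf and 53.1% of those of Gal. Without replicate 3, a setting chosen after seeing the data, the share of Hcrt fell to 49%, beside 76.9% for Npvf and 52.4% for Gal. Gal had 100 or more reads in all 28 hypothalamic libraries, Hcrt in 19 and Npvf in 15. Over the whole set Npvf had 0 reads in 75 of 196 libraries, Hcrt in 33 and Gal in 2.

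**Figure D1:**
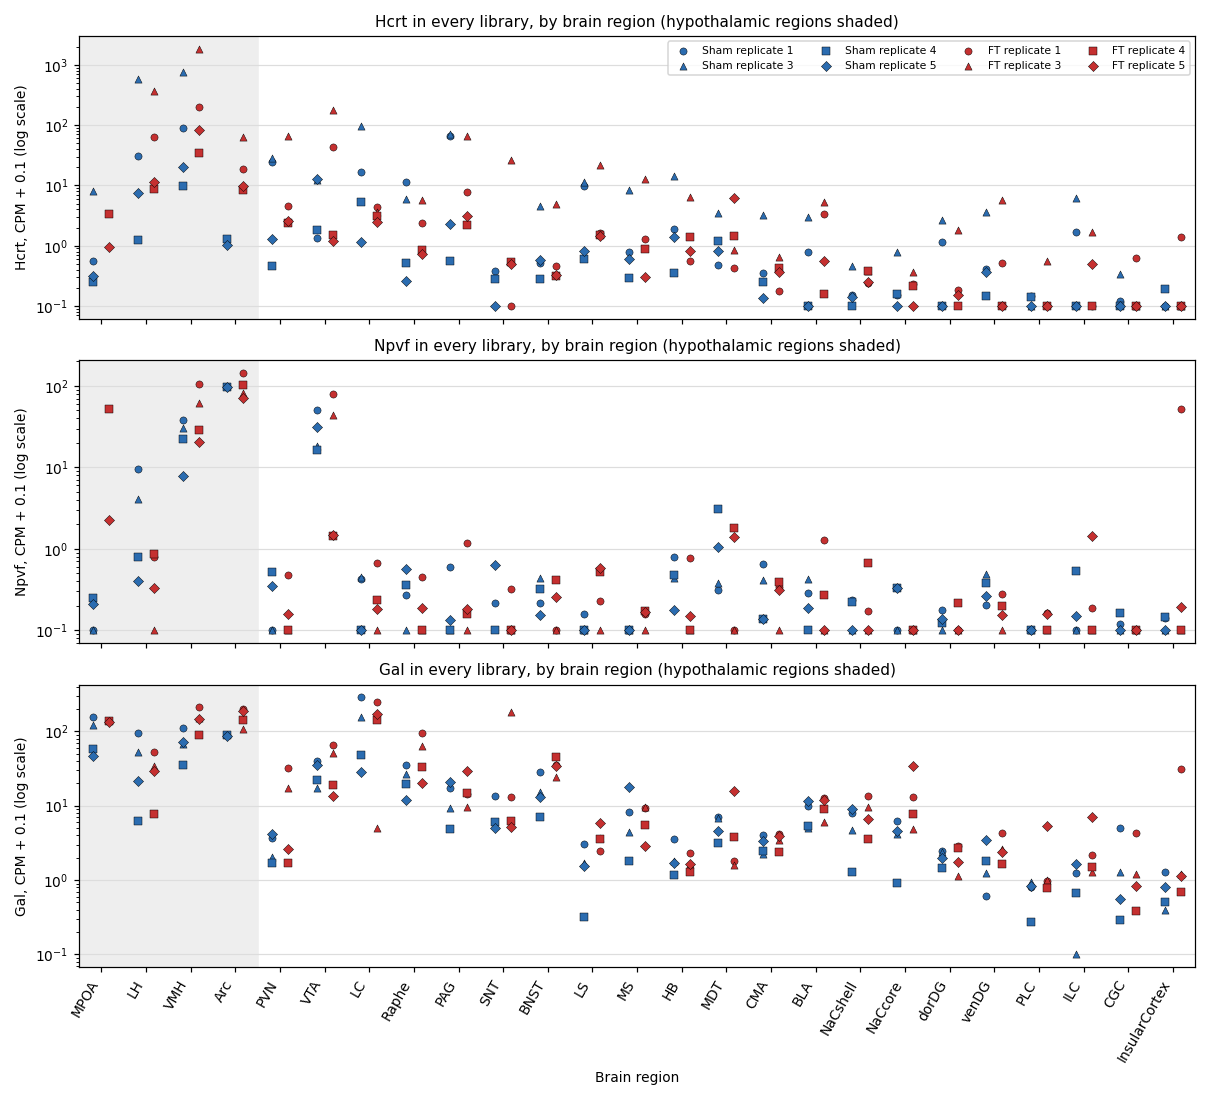
CPM plus 0.1 on a log axis for Hcrt, Npvf and Gal in every library with enough counts, by brain region, with Sham in blue, FT in red and a marker shape for each replicate number. Hcrt is highest in VMH and LH with replicate 3 on top, Npvf in Arc, VMH and VTA with most other libraries under 1 CPM, and Gal is spread over the hypothalamus, LC, VTA and Raphe, with InsularCortex FT replicate 1 and SNT FT replicate 3 far above their groups.

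Among the regions, Hcrt was highest in the libraries labelled VMH, not in those labelled LH. VMH Sham libraries had 89.7, 769.6, 9.51 and 20.3 CPM in replicates 1, 3, 4 and 5, and LH Sham libraries 30.9, 582.9, 1.13 and 7.26 CPM. VMH was thus above LH in each of the 4 replicates, although the ranges of both regions overlapped because replicate 3 exceeded the others by an order of magnitude. The difference of VMH over LH was 1.08 ± 0.62 on the log2 scale and was not called in Sham (edgeR adjusted p = 0.83). In the FT libraries the same contrast was called, with LH minus VMH at -2.16 ± 0.62, in a comparison with 11.4% of transcripts called.

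MPOA and Arc carried little Hcrt in Sham animals. MPOA Sham libraries had 0.46, 7.97, 0.15 and 0.22 CPM, from 10, 32, 4 and 4 reads, and Arc Sham libraries 1.18 and 0.94 CPM in replicates 4 and 5. VMH exceeded MPOA by 6.64 ± 0.87 on the log2 scale (edgeR adjusted p = 1.17e-07) and LH exceeded MPOA by 5.56 ± 0.85 (adjusted p = 1.12e-06). Arc was below VMH by 3.94 ± 1.03 (adjusted p = 0.0163) and below LH by 2.86 ± 1.01 (adjusted p = 0.0613), and both calls rested on 2 Arc libraries. Without replicate 3, 4 or 5 the difference of VMH minus Arc was 3.65, 4.68 and 3.49 and that of LH minus Arc 1.84, 3.82 and 2.50, none of them called, and DESeq2 did not call LH against Arc (2.78 ± 1.22). Arc and MPOA differed by 2.70 ± 1.07 without a call (adjusted p = 0.21).

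Outside the hypothalamus, Hcrt reads were found in several brainstem and midline regions, at levels that varied widely between libraries. In PAG (periaqueductal gray) the Sham libraries had 66.4, 71.1, 0.46 and 2.18 CPM, and in LC they had 16.4, 94.8, 5.22 and 1.03 CPM. VTA ranged from 1.22 to 12.7 CPM in Sham and from 1.07 to 175.9 CPM in FT. Each of these regions held libraries with under 10 CPM and libraries above them, and neighbours in the order of Sham means below LH (PAG, LC, PVN, VTA, LS) overlapped in range, with the upper region higher in 2 or 3 of 4 replicates. In 16 of the 21 regions outside the hypothalamus the Sham mean of Hcrt was under 5 CPM.

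The level of Hcrt varied with the replicate number. In the 6 hypothalamic groups that include replicate 3, its library was the highest for Hcrt in 6 of 6, by 6.47 to 80.3 times the median of the others. It was also the highest in 6 of 6 for Avp and for Oxt. Median CPM over the hypothalamic libraries of a number was highest in replicate 3 for further listed genes, among them Pcsk1n (303.7, others 2.19 to 8.75), Chga (193.3, others 7.03 to 26.5), Sst (482.9, others 18 to 103.7) and Cartpt (643.5, others 53.1 to 99.8). It was not the highest there for Cx3cr1, Penk, Slc17a6, Tcf7l2, Th or Vip. For Gal and for Npvf replicate 3 was never the highest, with median ratios of 1.10 and 1.10. Replicate 3 was the library set with most reads on few transcripts, and the part of this in the Hcrt levels was not tested. The replicate block in the fit takes out a shift that all regions of a number share, whereas the SD does not, as in VMH Sham with 222.28 ± 366.61 CPM (n = 4).

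Npvf was concentrated in Arc, VMH and VTA. The Arc Sham libraries had 96.42 and 96.41 CPM, from 1638 and 2350 reads. VMH Sham libraries had 38.3, 30.6, 21.9 and 7.71 CPM, LH Sham libraries 9.38, 3.98, 0.70 and 0.31 CPM, and MPOA Sham libraries 0, 0, 0.15 and 0.11 CPM, from at most 4 reads. The Sham levels fell in the order Arc, VMH, LH and MPOA, in which every Arc library was above every VMH library and VMH was above LH in 4 of 4 replicates. The FT libraries did not keep this order, since MPOA had 52 and 2.13 CPM and LH between 0 and 0.76 CPM.

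All 6 pairs of these regions were called for Npvf in Sham. Arc exceeded MPOA by 10.4 ± 0.92 on the log2 scale, LH by 5.41 ± 0.71 (edgeR adjusted p = 2.34e-08) and VMH by 2.42 ± 0.65 (adjusted p = 0.0213). VMH exceeded LH by 2.99 ± 0.59 (adjusted p = 0.0015) and MPOA by 7.98 ± 0.86, and LH exceeded MPOA by 4.99 ± 0.89 (adjusted p = 3.62e-05). The fitted differences against MPOA depend on a group with 6 reads in all. The smaller steps were less firm. VMH minus Arc was -2.55 without replicate 4 and -1.76 without replicate 5, neither of them called, and DESeq2 called neither this step (-2.64 ± 1.19) nor LH against VMH (-2.97 ± 0.97). In the FT libraries MPOA exceeded LH, with a log2 difference of 6.12 ± 1.12, and 3 of the 6 contrasts were not called, which were MPOA minus VMH (-0.47), MPOA minus Arc (-1.65) and VMH minus Arc (-1.18).

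VTA was the region outside the hypothalamus with Npvf in every library. Its Sham libraries had 51.3, 18.2, 16.1 and 31.1 CPM and its FT libraries 80.4, 44.3, 1.34 and 1.36 CPM in replicates 1, 3, 4 and 5. Th and Slc6a3, which mark dopamine neurons, were present in the VTA libraries at 305.4 ± 121.1 and 75.6 ± 67.3 CPM (SD, n = 4 Sham), and the part of neighbouring tissue in the Npvf reads was not tested. Of the 21 regions outside the hypothalamus, 19 had a Sham mean of Npvf under 1 CPM. The library labelled InsularCortex FT replicate 1, which lay nearest to VTA, held 669 Npvf reads (51.5 CPM), whereas the other 3 libraries of its group had between 0 and 0.093 CPM.

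Gal was the most widespread of the 3 and LC had the highest of its Sham means. LC Sham libraries had 285.1, 157.4, 48.5 and 27.9 CPM, MPOA Sham libraries 157.8, 121.04, 58.4 and 46.4 CPM, and Arc Sham libraries 89.5 and 87.3 CPM. VMH followed with 109.3, 67.8, 35.5 and 72 CPM and LH with 95.4, 52.5, 6.17 and 21.1 CPM. Neighbours in this order overlapped in range, and only VMH over LH held in all 4 replicates. In replicates 4 and 5, the only Sham replicates of Arc, Arc was above both MPOA and LC. In FT the means of Arc (159.01 CPM) and VMH (151.1 CPM) were above that of LC (140.9 CPM), which includes the library nearest to SNT at 4.89 CPM beside others at 140.5 to 247.9 CPM.

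Between the hypothalamic regions, 2 of 6 contrasts of Gal were called. MPOA exceeded LH by 1.35 ± 0.42 on the log2 scale (edgeR adjusted p = 0.0328) and Arc exceeded LH by 1.78 ± 0.49 (adjusted p = 0.0092). The first was not called without replicate 3 (1.41) or without replicate 4 (0.98), and LH minus Arc was not called without replicate 4 (-0.90). VMH exceeded LH by 0.91 ± 0.41 (adjusted p = 0.55), Arc exceeded VMH by 0.88 ± 0.49 (adjusted p = 0.51), MPOA exceeded VMH by 0.44 ± 0.41 (adjusted p = 0.86) and Arc exceeded MPOA by 0.44 ± 0.49 (adjusted p = 0.83), so none of these 4 differences was larger than the test could separate from the spread. Over the 6 pairs of regions, between 1.59% of all transcripts (LH against VMH) and 12.2% (LH against Arc) were called, with 8.17% for MPOA against LH, 1.98% for MPOA against VMH, 3.49% for MPOA against Arc and 3.83% for VMH against Arc, beside 12 of the 18 contrasts of the 3 genes.

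Gal was then compared between each galanin field of the brainstem, LC and Raphe, and the mean of the other regions outside the hypothalamus. Raphe was among the others for LC, whereas LC was left out of the others for Raphe, and PVN was left out of both. LC exceeded the mean of the others by 4.93 ± 0.21 on the log2 scale (edgeR adjusted p = 1.47e-33), a comparison in which 20.7% of transcripts were called higher. Raphe exceeded the mean of the others without LC by 2.87 ± 0.25 (edgeR adjusted p = 5.40e-16), with 21.9% called higher. Its Sham libraries had 35, 26.2, 19.7 and 11.8 CPM. VTA, which was not tested against the others, had 39.7, 17.4, 22.3 and 35.4 CPM and was above Raphe in 3 of 4 replicates. Both held in each of the 4 fits without a replicate, at 4.45 to 5.34 for LC and 2.57 to 3.17 for Raphe. At the low end, 4 of 21 regions outside the hypothalamus had a Sham mean of Gal under 1 CPM, and PLC (prelimbic cortex) was the lowest at 0.62 CPM. LC FT replicate 3, which lay nearest to SNT, had 7 Gal reads (4.89 CPM) against 1027 to 5284 in the other LC FT libraries, and SNT FT replicate 3, which lay nearest to LC, had 323 reads (183.3 CPM).

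**Figure D2:**
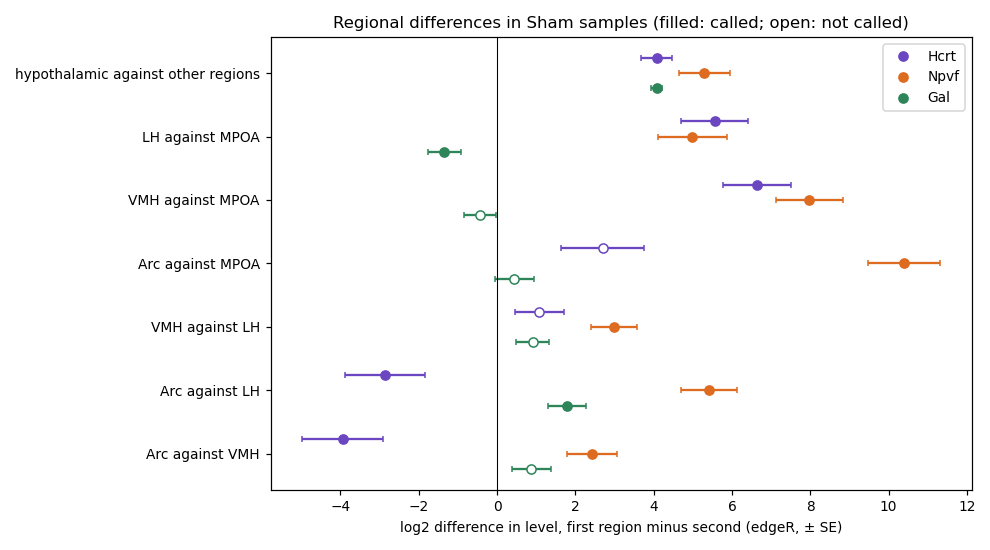
Differences in level between regions within the Sham libraries on the log2 scale, with standard errors from the edgeR fit and filled points for contrasts that were called. The 3 genes lie together in the top row, between 4.07 and 5.30, and part in the rows below, where Npvf rises from MPOA through LH and VMH to Arc while Hcrt is lower in Arc than in LH or VMH.

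The named transcripts whose regional levels in Sham were most like those of each gene are given with the correlation of mean log2 CPM over the 25 regions, among 1844 candidates. These values describe 25 region means that share replicates and punches, and the candidates are all transcripts the study had named. Hcrt was closest to Avp (r = 0.68 in Sham and 0.74 in FT), the vasopressin precursor, and next to Cbln1, Agt, APEG3 and Hexim2 (0.68 to 0.65). Npvf was closest to Cga, the glycoprotein hormone alpha subunit (0.93 and 0.82), and next to Asb4, Slc6a3, Tmem255a and Zfp248 (0.80 to 0.75). Gal was closest to Arhgap36 (0.90 and 0.92), with APEG3, Gpr165, Prmt2 and Adcy7 following (0.88 to 0.81). Between the 3 genes the same correlation was 0.40 in Sham and 0.65 in FT for Hcrt with Npvf, 0.56 and 0.65 for Hcrt with Gal, and 0.58 and 0.67 for Npvf with Gal. The candidates above were picked for the highest of 1844 values in Sham, so the values of these pairs are not comparable with theirs.

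In the list of other hypothalamic peptides and amines, 9 of 26 genes have a named transcript, and in the hypothalamic comparison 5 were called higher and 2 lower, with a median log2 difference of 2.52 beside 0.0062 over all transcripts. The higher genes were Avp (5.95 ± 0.25) and Oxt (7.29 ± 0.26), which encode vasopressin and oxytocin, Cartpt (2.60 ± 0.20), which encodes an appetite-regulating peptide, Th (2.52 ± 0.22), the rate-limiting enzyme of catecholamine synthesis, and Slc6a3 (2.69 ± 0.87), the dopamine transporter. Cck (-1.73 ± 0.27) and Vip (-0.99 ± 0.20), peptides of cortical interneurons among other cells, were lower, in a comparison where 11% of transcripts were called lower. Among the genes of peptide processing, 3 of 10 have a named transcript and only Pcsk2, a prohormone convertase, was called, at -0.67 ± 0.12.

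FT and Sham libraries of the same region and replicate number were then set side by side. In VMH, the region with the most Hcrt, all 3 transcripts had higher levels in FT in 4 of 4 pairs. Hcrt had 197.5, 1827, 34.3 and 84.3 CPM in the FT libraries against 89.7, 769.6, 9.51 and 20.3 CPM in Sham, a log2FC of 1.53 ± 0.27 (SE). Npvf had 104.4, 61.9, 28.8 and 20.6 CPM against 38.3, 30.6, 21.9 and 7.71 CPM, a log2FC of 1.03 ± 0.26. Gal had 214.4, 153.1, 89.1 and 147.6 CPM against 109.3, 67.8, 35.5 and 72 CPM, a log2FC of 1.08 ± 0.22. The ranges of FT and Sham overlapped for each gene, although the FT library was the higher in every pair. None of the 3 was called by edgeR in VMH, where 0% of 13358 transcripts were called and 1908 had an unadjusted p under 0.05. DESeq2 called all 3 higher there, at 1.59, 1.09 and 1.15, with 3.63% of 10686 transcripts called higher. Leaving out each replicate in turn moved the log2FC between 1.35 and 1.69 for Hcrt, between 0.89 and 1.23 for Npvf and between 0.99 and 1.14 for Gal.

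Listed genes were followed in the same VMH libraries, where edgeR called 0 of the 17 that were fitted. Avp had 124.8, 11292, 29.4 and 31.1 CPM in FT and 15.9, 1183.2, 10 and 9.3 CPM in Sham, and Oxt had 35.3, 13007.7, 9.9 and 9.6 CPM in FT and 10.5, 2335.1, 7.4 and 5.8 CPM in Sham. Both were higher in FT in 4 of 4 pairs, as were Cck (log2FC 1.11 ± 0.28) and Th (0.90 ± 0.26). Sst (0.67 ± 0.38), Cartpt (0.23 ± 0.29), Penk (-0.05 ± 0.34) and Vip (-0.43 ± 0.59) were higher in 3 of 4. The microglial genes went apart, with C1qa at 0.68 ± 0.27 and Cx3cr1 at -1.25 ± 0.38. Gad2, which marks GABA neurons, was lower in FT in 4 of 4 pairs (log2FC -0.94 ± 0.26) and Slc17a6, which marks glutamate neurons, in 3 of 4 (-0.61 ± 0.35), while the thalamic marker Tcf7l2 was at 0.04 ± 0.24 and the choroid plexus marker Ttr at 0.30 ± 0.50. Where in the hypothalamus each pool of punches was taken was not measured, and the part of these differences in the 3 genes was not tested.

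In MPOA the contrast rested on the pairs of replicates 4 and 5, and 4.85% of 14886 transcripts were called higher. All 3 genes were among them in edgeR. Npvf had 986 and 63 reads in the FT libraries (52 and 2.13 CPM) and 0, 0, 4 and 2 reads in the Sham libraries of replicates 1, 3, 4 and 5, so that both FT libraries were above every Sham library while the first held most of the reads. Its log2FC was 7.56 ± 0.61 in edgeR and was called, but 6.40 ± 2.34 in DESeq2, where it was not called and 2.66% of transcripts were called higher. Without replicate 4 or 5 a single pair was left and no fit was made. In replicate 4 the level of Npvf was above that of VMH FT replicate 4 (28.8 CPM), whereas in replicate 5 it was below that of VMH FT (20.6 CPM). Hcrt had 62 and 25 reads (3.27 and 0.85 CPM) in FT and 4 and 4 reads (0.15 and 0.22 CPM) in the paired Sham libraries, a log2FC of 3.30 ± 0.73, and the unpaired Sham library of replicate 3 lay above both at 7.97 CPM. Gal had 136.8 and 134.6 CPM in FT against 58.4 and 46.4 CPM in the paired Sham libraries, a log2FC of 1.38 ± 0.29, while the unpaired Sham libraries of replicates 1 and 3 had 157.8 and 121.04 CPM. For Hcrt and Gal the FT and Sham ranges in MPOA thus overlapped once the unpaired libraries were counted.

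Of the 8 other peptide and amine genes tested in MPOA, Vip was called lower (log2FC -2.16 ± 0.38) and none higher, with a median of 0.21 beside 0.014 over all transcripts, of which 4.74% were called lower. Of the processing genes Pcsk1n, an inhibitor of prohormone convertase, was called higher (1.73 ± 0.33) and Pcsk2 lower (-1.08 ± 0.28). Because names were available only for transcripts that the study had called in several regions, these counts are not independent of that choice.

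In Arc, where 13.7% of 14464 transcripts were called higher, Hcrt and Gal were called higher and Npvf was not. Hcrt had 18.4, 62.9, 8.20 and 9.72 CPM in the FT libraries and 1.18 and 0.94 CPM in the Sham libraries, a log2FC of 3.06 ± 0.25, and the groups did not overlap. Gal had 200.6, 106.3, 141.8 and 187.3 CPM in FT against 89.5 and 87.3 CPM in Sham, a log2FC of 0.86 ± 0.18, also without overlap. Npvf had 143.3, 82.3, 101.5 and 70.7 CPM in FT, a range that took in both Sham values, and a log2FC of -0.21 ± 0.19.

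Other transcripts differed between the same Arc libraries. Slc6a3 had 27.1 and 13.9 CPM in Sham and between 0.4 and 4.1 CPM in FT, and Th had 93.8 and 59.2 CPM in Sham against 34.3 and 38.1 CPM in the paired FT libraries, while the unpaired FT libraries of replicates 1 and 3 had 75.7 and 56 CPM, so that its groups overlapped. Avp had 3.1 and 1.1 CPM in Sham against 14.5 and 21.4 CPM in the paired FT libraries and 79.4 and 6571.4 CPM in those of replicates 1 and 3. Of 9 other peptide and amine genes, 4 were called higher (Avp, Oxt, Cck and Sst) and 3 lower (Slc6a3, Th and Cartpt), beside 10.8% of all transcripts called lower. Of 3 processing genes, Pcsk1n was called higher (1.48 ± 0.21) and Chga, a protein of secretory granules (-0.96 ± 0.17), and Pcsk2 (-0.74 ± 0.16) lower. Of the tissue markers, Tcf7l2 (0.98 ± 0.15) and Ttr (1.95 ± 0.40) were called higher and Gad2 (-0.79 ± 0.14) and the microglial gene Cx3cr1 (-1.35 ± 0.18) lower, while C1qa (0.23 ± 0.20), another microglial gene, and Slc17a6 (-0.08 ± 0.18) were not called. The part of the tissue taken in the Hcrt and Gal values of Arc was not tested.

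In LH, Npvf was lower in FT in 3 of 4 pairs. Its FT libraries had 0.70, 0, 0.76 and 0.23 CPM, from 11, 0, 13 and 4 reads, and its Sham libraries 9.38, 3.98, 0.70 and 0.31 CPM, a log2FC of -1.98 ± 0.79. Hcrt in LH was higher in FT in 3 of 4 pairs, with 62.7, 364.7, 8.69 and 11.2 CPM against 30.9, 582.9, 1.13 and 7.26 CPM (log2FC 0.84 ± 0.45), and Gal in 2 of 4 pairs (-0.16 ± 0.24). None of the 3 was called in LH, where 0.0965% of 13466 transcripts were.

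Listed genes were also followed in these LH pairs. Of 18 listed genes fitted in LH, 5 were higher in FT in 4 of 4 pairs, which were Cck (1.62 ± 0.35), Avp (1.49 ± 0.41), Vip (0.94 ± 0.21), C1qa (0.66 ± 0.16) and Tcf7l2 (0.49 ± 0.19). Another 3 were lower in 4 of 4 pairs, which were Slc6a3 (log2FC -3.41 ± 0.63), Ttr (-1.29 ± 0.36) and Gad2 (-0.56 ± 0.19). None of the 18 was called, and their part in the Npvf values of LH was not tested. The share of all transcripts that moved 1 way in every pair was not computed. These counts thus have no background to be read against, and the 18 are named only because the study had called them in several regions.

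**Figure D3:**
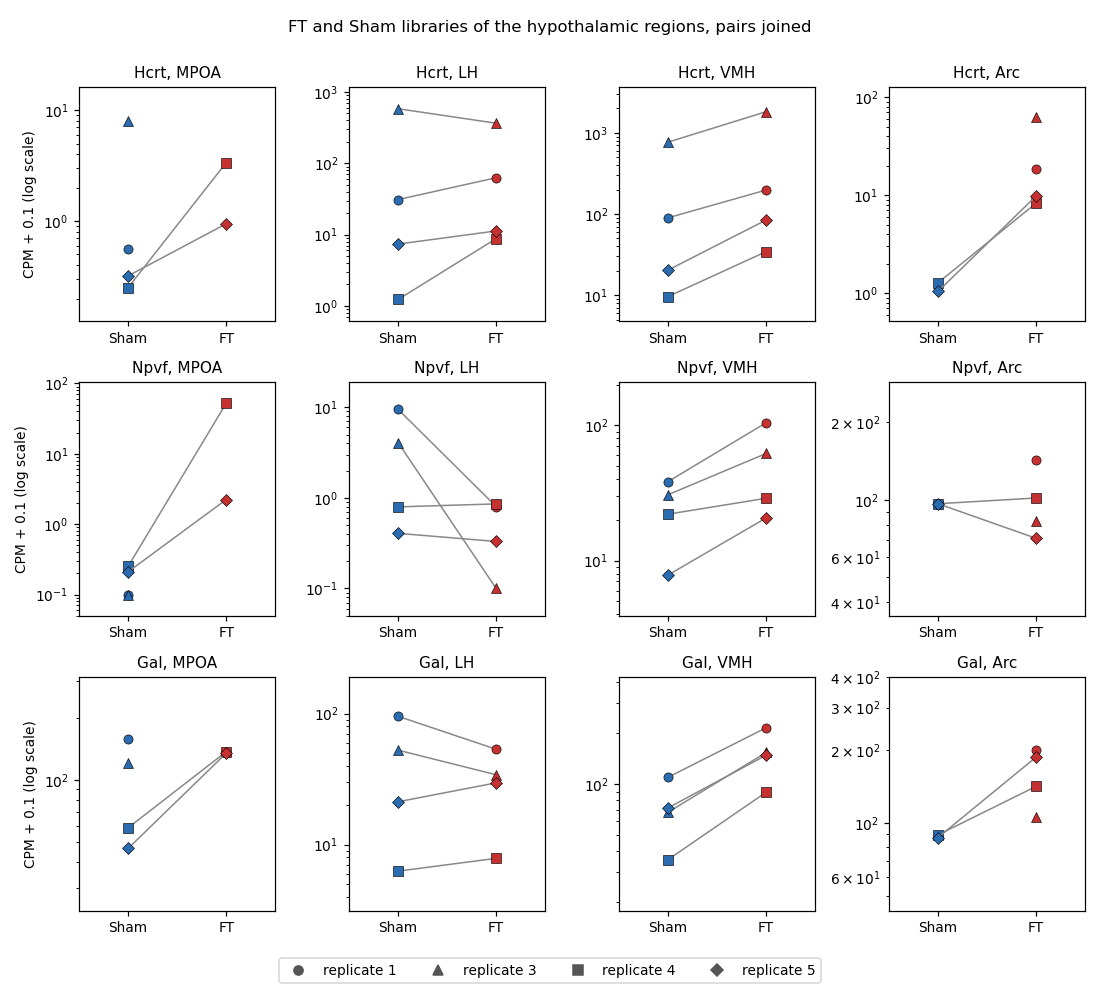
CPM plus 0.1 on a log axis for each gene in the 4 hypothalamic regions, with Sham on the left, FT on the right, a marker for each replicate number and lines joining libraries of the same number. All lines rise in VMH, whereas in LH the lines of Npvf and Gal fall or rise with the replicate, and in MPOA the 2 Npvf lines end at 52 and 2.13 CPM.

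Over all regions, Gal passed the filter on low counts in 24 of 25, Hcrt in 14 and Npvf in 6. A transcript listed in few libraries passes the filter only where a group carries it, so these regions are not the whole set. The log2FC of Gal was positive in 21 of 24 regions, from -0.31 in MDT (mediodorsal thalamus) to 2.08 in InsularCortex, with a median of 0.64. That of Hcrt was positive in 10 of 14 regions, from -1.53 in LC to 3.30 in MPOA, and that of Npvf in 2 of 6. The edgeR calls, all higher in FT, were in MPOA and Arc for Hcrt, in MPOA for Npvf and in MPOA, Arc and Raphe for Gal.

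In Raphe, where 3.08% of 12550 transcripts were called higher, Gal had 95.01, 64, 33.1 and 19.8 CPM in FT against 35, 26.2, 19.7 and 11.8 CPM in Sham. FT was higher in 4 of 4 pairs, with a log2FC of 1.05 ± 0.19, although the ranges overlapped. The call was lost without replicate 1 (0.87) and without replicate 4 (1.17), and DESeq2 made it (1.07, with 4.83% of transcripts called higher). Th was at 14.9 ± 15.4 CPM in FT Raphe libraries and 82.03 ± 92 CPM in Sham (SD, n = 4), and its part in the Gal values was not tested. In NaCcore, Gal was higher in FT in 4 of 4 pairs (log2FC 2.04 ± 0.48) and was called without replicate 1 (2.48) and by DESeq2 (2.00), where 4.61% of transcripts were called higher, but not by edgeR with all pairs, where 0.229% were called. The log2 ratios of CPM plus 1 in its pairs were 0.97, 0.17, 2.27 and 2.66 in replicates 1, 3, 4 and 5. The larger ratios came from the pairs whose Sham libraries lay nearest to BLA and NaCshell.

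Some of the wide values of Gal in other regions also rested on libraries that stood apart from their labels. The log2FC in InsularCortex was 2.08 ± 0.84 with all libraries and 0.73 ± 0.56 without replicate 1. In LC it was 0.32 ± 0.97 with all libraries and 1.32 ± 0.51 without replicate 3, where FT was below Sham in replicate 1 (247.9 and 285.1 CPM) and above it in replicates 4 (140.5 and 48.5 CPM) and 5 (170.3 and 27.9 CPM). In SNT, whose fit included the Sham library with 4586 counts, it was 0.08 ± 0.25 and -0.03 ± 0.23 without replicate 3.

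In VTA the pairs went in opposite directions for Hcrt and for Npvf, and the pairs parted as the libraries did in the check of labels, with replicates 4 and 5 nearest to Raphe. Hcrt had 43.9 and 175.9 CPM in the FT libraries of replicates 1 and 3 against 1.22 and 12 CPM in Sham, but 1.40 and 1.07 CPM in those of replicates 4 and 5 against 1.71 and 12.7 CPM. Npvf was likewise higher in FT in replicates 1 and 3 and lower in replicates 4 and 5, with 1.34 and 1.36 CPM against 16.1 and 31.1 CPM. Gal split in the same way, being higher in FT in replicates 1 and 3 and lower in replicates 4 and 5. Slc6a3 had 5.64 and 2.72 CPM in FT against 61.1 and 68.4 CPM in Sham in replicates 4 and 5, 20.5 against 5.49 CPM in replicate 1 and 165.6 against 167.4 CPM in replicate 3. Its part in the values of the 3 genes was not tested. The log2FC of the 3 genes in VTA were 1.12 ± 1.32, -1.43 ± 1.03 and 0.06 ± 0.43, and none was called.

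**Figure D4:**
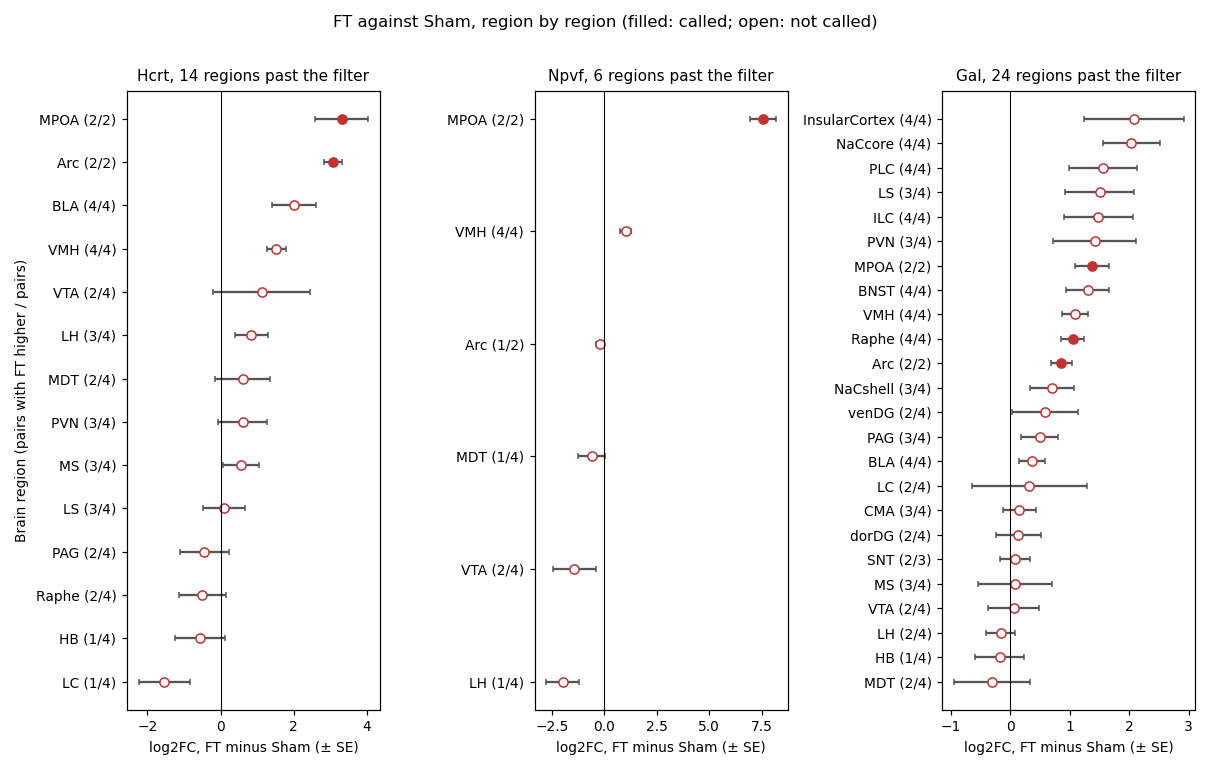
The log2FC of FT against Sham with its standard error for each gene in the regions where it passed the filter on low counts, with the number of pairs in which FT was higher beside each region name and filled points for calls. The filled points are MPOA and Arc for Hcrt, MPOA for Npvf and MPOA, Raphe and Arc for Gal, and most points for Gal lie to the right of 0.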

How the data were processed

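The authors deposited raw counts per Ensembl transcript for 196 libraries, made with STAR on rn5 and HTSeq, without normalization. Submitters' notes also name FastQC, and tool versions are not given in the sources used here. Names came from the study's table of transcripts called in several regions. The 3 genes, the gene lists and the rules were chosen with earlier results of these data known.

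Regional levels were tested in 96 Sham libraries in 1 fit (region plus replicate number as block). FT against Sham was fitted in each region with the same block. edgeR 4.0.16 (R 4.3.3) was used with TMM factors, filterByExpr (minimum count of 10, minimum total of 15), the quasi-likelihood test and Benjamini-Hochberg adjustment over all transcripts of a contrast. A call had an adjusted p of at most 0.1 and an absolute log2FC of at least 0.32. The SE is the absolute log2 difference divided by the square root of F. Libraries under 100000 counts and the CGC (cingulate cortex) pair of replicate 1, taken to be the outliers that the study removed, were left out of the regional fit, and CPM values use TMM factors over all libraries above that minimum. DESeq2 1.42.0 was the alternative tool, and others were no block, other size factors, no filter, a threshold of 0.05, FT in place of Sham and each replicate left out. On simulated counts the changed transcripts that were called had the right direction. These counts had planted changes and the same dispersion for every transcript. They do not show how often calls are missed or wrong at the spread seen here.

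The study processed FT and Sham samples of a number in parallel. Their deviations from the group means correlated above 0.1 for every pair in 23 of 23 regions with 3 or more pairs, so numbers were used as pairs. Medians over all 25 regions ran from -0.025, in Arc with 2 pairs, to 0.76. The correlations of the 2 pairs were -0.072 and 0.19 in MPOA and -0.10 and 0.051 in Arc. In these 2 regions 1 group has only 2 libraries, whose deviations from their mean mirror each other. The check therefore cannot decide on pairing there and gives no ground for it. The block was kept because the study used replicate numbers as batches. Named transcripts most like each gene and list members were chosen by rule. Replicates of a region are pools of different animals. The block takes out shifts that all libraries of a number share. In the regional fit, p-values thus measure the scatter of libraries left after the block, not the spread between pools. All its regions were punched from the same group of rats, so its libraries are not independent samples of animals. For FT against Sham, p-values measure the spread of the differences between paired pools. Counting error alone limits values of a few reads.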

Additional observations from a re-analysis of the deposited data

Results flagged for a closer look

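A group of 4 libraries was examined where its most counted library held at least 100 reads of a gene. In these 53 groups, the gap of the highest or lowest library to its nearest neighbour was compared with the range of the group, and 12 stood apart. The cutoff marks about 1 in 20 groups when values follow a normal curve. Groups entered here by their highest count, and CPM were not put on a log scale. This rate is therefore no background for the 12.

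For Hcrt the library that stood apart was that of replicate 3, and it was the highest, in 7 groups. It had 66.2 CPM in PVN FT (2.30 to 4.45 in the other libraries), 582.9 CPM in LH Sham (1.13 to 30.9), 364.7 CPM in LH FT (8.69 to 62.7), 769.6 CPM in VMH Sham (9.51 to 89.7), 1827 CPM in VMH FT (34.3 to 197.5), 66.9 CPM in PAG FT (2.10 to 7.59) and 94.8 CPM in LC Sham (1.03 to 16.4). Replicate 3 was the shallowest set of libraries, with 68.2% of reads on 50 transcripts.

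The library labelled InsularCortex FT replicate 1 stood apart for Npvf (51.5 CPM, others 0 to 0.093) and for Gal (30.9 CPM, others 0.58 to 1.09), and SNT FT replicate 3 for Gal (183.3 CPM, others 5.12 to 12.8). Both lay nearer to another region than to their own. Gal also stood apart in replicate 5 of ILC (infralimbic cortex) FT, at 6.95 CPM (others 1.17 to 2.06), and of MDT FT, at 15.6 CPM (others 1.51 to 3.69).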

How the results depend on the processing

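The hypothalamic difference kept its direction and its call for all 3 genes under every alternative run, as did Gal in LC and Raphe. The contrasts between hypothalamic regions moved more. Without the replicate block the difference was no longer called for MPOA minus LH of Gal (1.09), MPOA minus VMH of Hcrt (-6.96), LH minus VMH of Npvf (-2.75), LH minus Arc of Hcrt (7.17) and Gal (-0.97), and VMH minus Arc of Hcrt (7.70) and Npvf (-1.94), and the uncalled MPOA minus Arc turned sign for Hcrt (0.74) and Gal (0.12). The regions called for FT against Sham fell to 0 for each gene without the block. DESeq2 did not call LH minus VMH (-2.97) or VMH minus Arc (-2.64) of Npvf or LH minus Arc of Hcrt (2.78), and called Gal in 6 regions. Its single call for Npvf was VMH, not MPOA. With no low-count filter, 7 regions were called for Hcrt, 4 for Npvf and 7 for Gal. For FT against Sham, the share of all transcripts called was not computed without filter, without block or with a replicate left out. Counts of regions in these settings thus have no background to be read against. DESeq2 called between 1.37% (BNST) and 5.5% (Arc) of transcripts higher in the regions where its share was computed. With FT in place of Sham libraries, MPOA minus LH of Npvf turned to 6.12, uncalled were MPOA minus VMH (-0.47), MPOA minus Arc (-1.65) and VMH minus Arc (-1.18) of Npvf and LH minus Arc of Hcrt (1.24), newly called were LH minus VMH of Hcrt (-2.16) and Gal (-2.37), and MPOA minus Arc of Gal was 0.073. Leaving out InsularCortex FT replicate 1, LC FT replicate 3 and SNT FT replicate 3 was an alternative chosen after seeing the data. It gave 5.91, -0.63, -1.74, -1.11, 1.23, -2.17 and -2.37 for the first 7 of those contrasts. Other FT libraries that lay nearer to another region, among them LH FT replicate 5, were kept in it. With 1 replicate left out, ranges were 0.98 to 1.72 (MPOA minus LH, Gal), -0.62 to 0.075 (MPOA minus Arc, Gal, turning sign without replicate 4), -2.26 to -0.90 (LH minus Arc, Gal), 1.84 to 3.82 (LH minus Arc, Hcrt), 3.49 to 4.68 (VMH minus Arc, Hcrt) and -2.64 to -1.76 (VMH minus Arc, Npvf), and 0 to 2, 0 to 1 and 0 to 4 regions were called for Hcrt, Npvf and Gal, since MPOA and Arc could not be fitted without replicate 4 or 5. The cause of the other shifts was not tested. RLE size factors (26 results) and the left-out libraries (23) changed no call, nor did PVN counted as hypothalamic in the 3 hypothalamic differences. A threshold of 0.05 and all 8 CGC libraries, run on the regions called for FT against Sham, left the 3 counts the same. At 0.05, LH minus Arc of Hcrt (edgeR adjusted p = 0.0613) would not be called. MPOA and Arc, with 2 pairs each, and Npvf with at most 4 reads in MPOA Sham libraries, limit what depth and replication can show.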
